A study of Mus musculus with 4 samples.

Results

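The 32 genes described here encode the proteins that carry, restrain and display T cell receptor (TCR) signalling in T cells: Zap70, Lat, Lcp2, Plcg1, Vav1, Grap2 and Tespa1 near the receptor, Sos1, Rasgrp1, Prkcq, Bcl10 and Malt1 in the downstream relay, Cbl, Cblb, Ptpn22, Ptpn6, Csk, Dok1, Dok2, Sla, Sla2, Ubash3a, Ubash3b and Dusp2 among the inhibitors, and Ptprc, Ptprj, Thy1, Cd2, Cd28, Cd69, Cd24a and Sh2d1a as surface proteins and an adaptor that binds to one of their families. Open chromatin at these genes was read from Omni-ATAC-seq, in which Tn5 transposase cuts and tags accessible DNA, in immature γδ cells sorted from the thymus of fetal mice. Overlapping peaks of any library, down to 1 shared bp, were joined into regions on chromosomes 1 to 19 and X, and each region was given to the nearest protein-coding gene body within 100 kb. In this way 753 regions belonged to the 32 genes, of 159307 regions near any gene and 171490 in all. Each gene held between 2 (Dok1) and 60 (Prkcq) regions, with a median of 19.5, and 439 of the 753 lay inside the gene body.

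The libraries came from 2 genotypes, with 2 libraries each. Maf WT fetuses were Maf+/+ Il7rCre and Maf KO fetuses were Maf fl/fl Il7rCre, so both carried the Cre transgene, and all were C57Bl/6 after 5 backcross generations. Cells came from the thymi of pooled fetuses at embryonic day 17 to 18, and 15000 to 17000 were sorted per library as CD24+ CD45RBlo γδ cells that carried CD3e and lacked CD4 and CD8. The series addressed how accessibility differs when the bZIP transcription factor c-Maf is missing from fetal γδ thymocytes of the lineage that makes interleukin 17. Cre driven by Il7r acts from lymphoid precursors on, so deletion can begin before the sorted stage and is not limited to γδ cells. The labels did not say whether both libraries of a genotype came from separate pools, so the p-values below measure the spread between these libraries, which may be technical.

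When a TCR binds its ligand, Src-family kinases phosphorylate the CD3 chains, ZAP-70 docks there, and it phosphorylates the adaptors LAT and SLP-76, which gather phospholipase C and exchange factors. The signal then runs through diacylglycerol, calcium, Ras and protein kinase C theta to the MAP kinases and NF-κB, and phosphatases, ubiquitin ligases and inhibitory adaptors set its strength and length. In γδ thymocytes the strength of this signal is known to bear on the choice between effector fates, and CD24 is lost as the cells mature.

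The lists of the WT libraries held 102718 and 132179 peaks and those of the KO libraries 130935 and 120141, so WT 1 was the shortest list. In the body of the targeted gene, Maf, a region at chr8:115705837-115705990 was called in both WT libraries, at −log10 q values of 15.0 and 15.9, and in neither KO library. A second region of that gene, chr8:115704898-115705094, was called in WT 1 and in both KO libraries, and whether either lies in the deleted stretch is not given in the sources used here. Counting peaks no more than 1 kb from a gene end, there were some for 9 of 9 γδ T cell markers and for 7 of 7 αβ thymocyte markers in every library, so these peaks did not separate the 2 kinds of thymocyte. Of the B cell, myeloid, erythroid and stromal lists, 3 of 5, 2 of 6, 2 or 3 of 5 and 3 or 4 of 5 genes had such a peak, and Pax5, Mpo, Csf1r, Lyz2, Csf3r, Gata1 and Pdgfra had none in any library. The part of other cells in the results below was not tested.

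Most of the 32 genes had an open start or end in every library. For 30 of them (93.8%) a region no more than 1 kb from a gene end was called in every library, as for 65.4% of the 18260 protein-coding genes with any region, expressed or not. The exceptions were Csk, where WT 1 had none, and Sla, which lies inside the body of Tg and had none in any library. RefSeq promoter entries (GRCm38.p6) matched 21 of the 32 genes, with 28 promoters, and 18 of those genes (85.7%; 59.8% of all genes with an entry) had a region called in all 4 libraries over a promoter window, Grap2, Ptprj and Ubash3b being without. Bcl10, Lat and Ubash3a are shown by the rule stated under the processing, and Rasgrp1 was added after its values were seen. The stretches below are the 250 bases before each RefSeq start, read 5′ to 3′ on the gene's strand, and each was overlapped by a region called in every library. Capitals mark matches, on either strand, to 1 of 5 short motifs: TGACTCA (AP-1 core), TGCTGA (core of the Maf recognition element), GGAA (ETS core, which reads TTCC on the other strand), TGTGGT (RUNX) and CTTTGA (TCF).

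Bcl10 chr3:145924012-145924261 (plus strand): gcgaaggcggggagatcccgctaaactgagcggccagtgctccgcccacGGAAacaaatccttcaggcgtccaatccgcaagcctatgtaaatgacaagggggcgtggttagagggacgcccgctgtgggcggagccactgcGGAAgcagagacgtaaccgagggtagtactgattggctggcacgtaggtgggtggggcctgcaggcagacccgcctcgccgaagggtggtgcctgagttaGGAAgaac
Lat chr7:126369569-126369818 (minus strand): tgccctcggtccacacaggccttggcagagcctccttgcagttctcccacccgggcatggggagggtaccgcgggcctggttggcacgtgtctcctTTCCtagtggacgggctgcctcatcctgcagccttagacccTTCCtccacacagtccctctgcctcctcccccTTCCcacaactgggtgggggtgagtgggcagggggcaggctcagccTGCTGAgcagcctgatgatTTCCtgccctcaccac
Ubash3a chr17:31207816-31208065 (plus strand): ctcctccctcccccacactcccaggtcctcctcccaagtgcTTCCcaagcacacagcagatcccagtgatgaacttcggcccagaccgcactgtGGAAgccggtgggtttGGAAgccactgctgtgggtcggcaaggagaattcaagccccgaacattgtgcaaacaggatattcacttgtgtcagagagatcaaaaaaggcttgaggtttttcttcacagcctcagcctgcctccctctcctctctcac
Rasgrp1 chr2:117342878-117343127 (minus strand): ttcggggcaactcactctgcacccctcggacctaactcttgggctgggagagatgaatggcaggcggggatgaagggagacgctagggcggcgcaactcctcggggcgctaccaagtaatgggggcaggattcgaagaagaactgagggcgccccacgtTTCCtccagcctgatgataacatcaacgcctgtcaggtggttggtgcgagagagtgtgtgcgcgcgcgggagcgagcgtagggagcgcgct

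All capitals above are ETS cores except for the single TGCTGA of Lat. Of the 28 member promoters, 26 (92.9%) held GGAA against 93.4% of 32851 promoters of the same length, and 4 (14.3%) held TGCTGA against 16.1%, those of Lat, Ptpn22, Ubash3b and Vav1. The RUNX letters stood in 4 (14.3%, all promoters 14.0%), the TCF letters in 3 (10.7%, all promoters 13.8%) and TGACTCA in 0 (all promoters 4.46%). The TGCTGA core and the TGACTCA core share the letters TGA, and neither search implies a bound site.

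Accessibility at these genes was shared between the genotypes to a large degree. Of the 753 regions, 400 (53.1%) were called in all 4 libraries, against 46.7% of all regions near a gene. In 1 library 163 were called (21.6%; background 27.9%), in 2 libraries 98 (13.0%; background 13.2%) and in 3 libraries 92 (12.2%; background 12.2%). The WT libraries called 500 and 610 of the 753 regions and the KO libraries 575 and 550. WT 1 was thus the lowest and WT 2 the highest, and the KO libraries lay between them. The same order held over all regions near a gene, of which the WT libraries called 58.0% and 76.6% and the KO libraries 73.8% and 69.4%. Mean shares called were 73.7% ± 10.3 for WT and, for KO, 74.7% ± 2.35 (SD over 2 libraries), and the gap of 0.996 points was smaller than the spread (exact permutation test, two-sided, p = 1.0). With 2 libraries against 2, the smallest p that this test can give is 0.333.

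Regions called in both libraries of 1 genotype and in neither of the other were few and were found in both genotypes. There were 20 WT-only regions (2.66%; background 2.09% of all regions near a gene) and 18 KO-only regions (2.39%; background 3.02%). Their shares lay near the background in both directions. Among the 32 genes, 7 had WT-only regions alone, 6 KO-only regions alone, 4 both and 15 neither, as the plot of genotype-specific regions per gene shows. By role, the receptor-proximal activators and adaptors had 5 WT-only and 1 KO-only of 145 regions, the relay 4 and 0 of 143, the inhibitors 6 and 10 of 231, and the surface group 5 and 7 of 234. No WT-only region and 1 KO-only region lay within 1 kb of a gene end, and none overlapped a promoter window. With equal numbers of peaks per library the counts were 29 and 12. Leaving out 1 library relaxes the rule: the WT-only count was then 77 without WT 1, 44 without WT 2, 45 without KO 1 and 33 without KO 2, and the KO-only count 27, 64, 55 and 66.

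**Figure D1:**
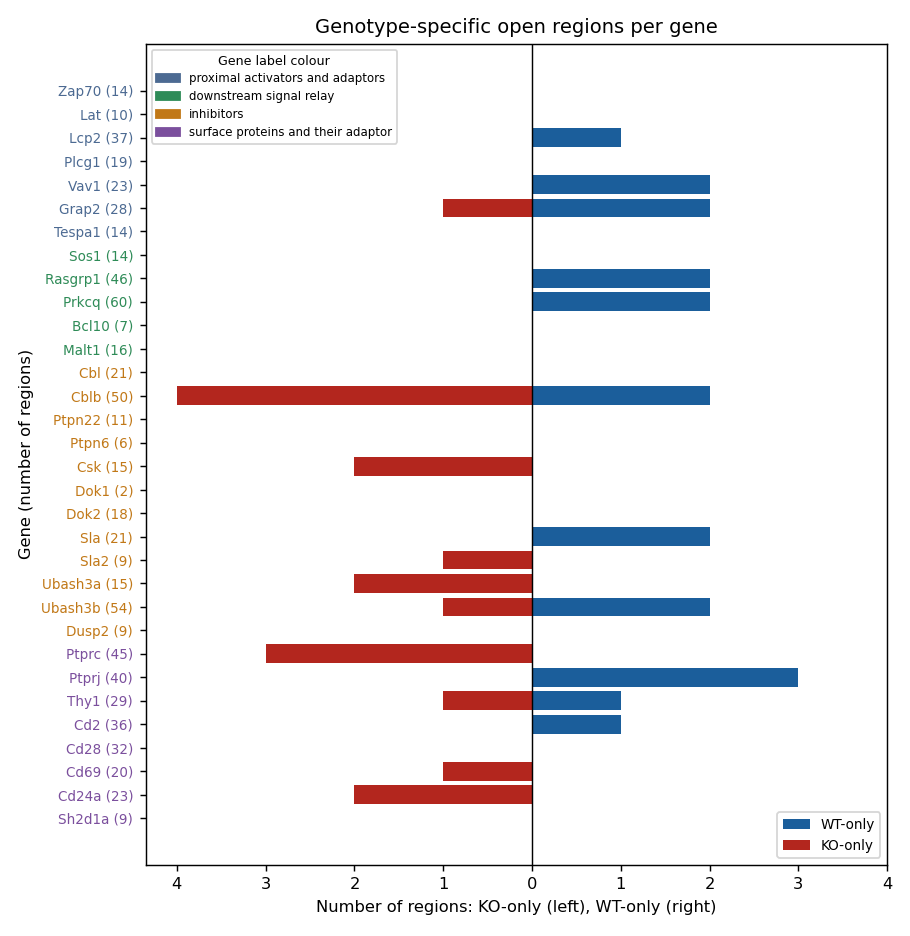
Bars give the number of WT-only regions (blue, to the right of 0) and KO-only regions (red, to the left of 0) of each of the 32 genes, with the gene's total number of regions in brackets and its role as the colour of its name. Cblb had the most KO-only regions (4) and Ptprj the most WT-only regions (3), while 15 genes had neither.

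The genotype-specific regions were mostly short and weak. They had a median width of 148 bp (WT-only) and 144 bp (KO-only), against 284 bp for member regions called in all 4 libraries. Taking the lower of the 2 libraries that called a region, the percentile of its fold enrichment among all peaks of that library had a median of 17.7 for WT-only regions, from 0.359 to 63.9, and of 4.83 for KO-only regions, from 0.107 to 27.7. Over all genes both medians were 16.3. A −log10 q of at least 5 in both calling libraries was reached by 5 of the 20 WT-only regions (25%; 25.6% over all genes) and by 1 of the 18 KO-only regions (5.56%; 20% over all genes). The lower percentile exceeded 50 in 3 WT-only regions, 2 at Rasgrp1 and 1 at Grap2, and in 0 KO-only regions (8.53% and 1.6% over all genes). These −log10 q values and folds are the authors', computed within each library.

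Strength at the 400 regions called in all 4 libraries was compared by rank. Within each library the fold enrichment over the local background was ranked among the 78650 regions called in all 4 libraries, on a scale from 0 (lowest) to 100 (highest). The median KO minus WT difference was −1.28 percentile points over the 400 member regions and −0.0764 over the 74408 such regions near any gene. It was lower in KO at 228 of the 400 regions (57%, against 50.6% over all genes). Both KO libraries lay below both WT libraries at 82 regions (20.5%; background 18.1%), and above both at 54 (13.5%; background 18.3%). This balance turned without WT 1 (133 lower and 169 higher of 447) and was even with ranks among all peaks of a library (66 and 65). In that ranking the median difference was 0.221 points for members and 1.22 for all regions called in all 4 libraries. No share over all regions was taken for 66 and 65. Omitting WT 2 gave 220 lower and 98 higher of 409, omitting KO 1 gave 160 and 99 of 414, and omitting KO 2 gave 148 and 119 of 425. Leaving out 1 library relaxes this rule too, so these counts are not comparable with 82 and 54. No share over all regions was taken for them. In these bulk libraries, fewer cells with an open region and less opening per cell cannot be told apart.

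No member region passed the test. With limma across all 78650 regions, 0 of the 400 had an adjusted p under 0.05 in either direction (background 0.0% in each), and the smallest adjusted p was 0.406. At an unadjusted limma p under 0.05, 23 were lower in KO (5.75%; background 3.6%) and 8 higher (2.0%; background 3.85%). The median difference rested on single libraries: it was 0.518 without WT 1, −4.63 without WT 2, −1.65 without KO 1 and −0.588 without KO 2. The median gap between the 2 WT libraries at a member region was 9.05 points and between the 2 KO libraries 6.05, against 8.18 and 6.47 over all genes. The median size of the difference between genotype means was 5.38, against 5.64 over all genes.

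**Figure D2:**
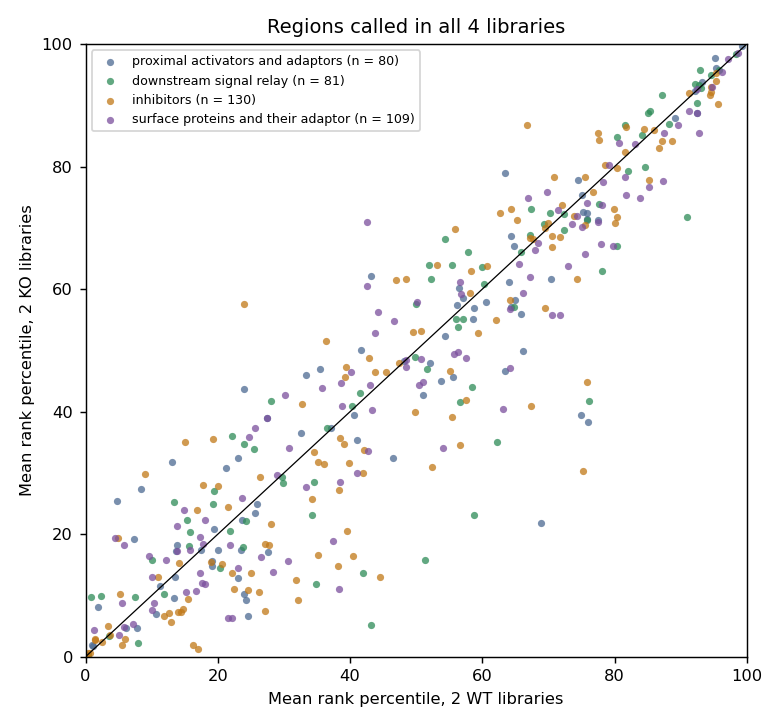
Each point is 1 of the 400 regions called in all 4 libraries, placed by its mean rank percentile in the 2 WT libraries (horizontal) and the 2 KO libraries (vertical) and coloured by the role of its gene, with the line of equal ranks. Differences run from −47.1 points below the line to 33.5 above it, and the bounded scale leaves little room for them near 0 and 100.

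Some regions of these genes ranked near the top of the libraries, at a smaller share than over all genes. At 28 of the 400 regions (7%; 9.41% over all genes), in 18 genes, the mean percentile exceeded 90. A mean this high leaves little room for a difference: its median size was 0.723 points there and 0.933 at the 7002 such regions of all genes. The highest region of Tespa1, chr10:130322634-130323008 at the gene end, ranked at 99.7 and 98.9 in WT and 99.5 and 99.6 in KO. The promoter of Bcl10, at chr3:145923836-145924618, ranked at 98.3 in both WT libraries and at 98.6 and 98.0 in KO. At Cd69, which encodes an early activation antigen, the highest region lay 9.0 kb outside the gene, chr6:129284371-129284963, at 99.2 and 98.3 in WT and 98.2 and 98.9 in KO. Libraries of both genotypes overlapped in rank at all 3 of these regions.

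Taking the highest region of each of the 32 genes, 23 lay inside the gene body and 13 within 1 kb of a gene end. Their mean percentiles ran from 58.4 (Dok1) to 99.4 (Tespa1), and 17 of the 32 were lower in KO. The difference reached 10 points at only 1 of them, that of Sla2, where KO was higher by 19.8. That value was 5.98 without WT 1 and 32.0 without WT 2. Promoter windows ranked anywhere from a mean of 4.48 (Csk) to 98.3 (Bcl10). Over the 19 promoter regions called in every library the median difference was −2.39 points, from −19.8 at Ptpn22 to 5.76 at Prkcq. Of the 19, 4 were lower in both KO libraries (background 18.1%) and 0 higher in both (background 18.3%).

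Among the receptor-proximal genes, the widest rank difference of all 400 regions was found at Zap70, the kinase that docks on phosphorylated CD3 chains. Inside this gene, at chr1:36779400-36779883 and 2.94 kb from its nearer end, the percentiles were 66.2 and 71.4 in WT and 32.2 and 11.3 in KO. Both KO values were therefore below both WT values, by a mean of −47.1 points (SE 12.3, limma adjusted p = 0.489). The same region covered 398 and 346 bp in WT and 203 and 163 bp in KO. The region over the Zap70 promoter at the start of the gene body, chr1:36761597-36761961, overlapped between the genotypes, at 83.2 and 68.7 in WT and 73.5 and 69.4 in KO. Another RefSeq start of this gene directly follows chr1:36778734-36778983, a promoter window where no region was called. The region with the widest difference, from position 36779400, lies downstream of that start.

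Lcp2 encodes SLP-76, the adaptor on which the signalling complex assembles, and its regions differed in both directions. Beyond its downstream end, 24.5 kb away, chr11:34116757-34117205 ranked at 71.7 and 80.4 in WT and at 33.0 and 43.5 in KO, a difference of −37.8 (SE 10.1, limma adjusted p = 0.489). At 11.9 kb from the same end, chr11:34104218-34104519 ranked at 71.1 and 78.8 in WT and at 38.0 and 40.9 in KO, a difference of −35.4 (SE 9.75, limma adjusted p = 0.490). These neighbours shared the pattern of 2 high WT and 2 lower KO values. On the other side of the gene, 16.3 kb upstream, chr11:34030033-34030615 ranked at 5.72 and 3.86 in WT and at 32.7 and 18.0 in KO, a difference of 20.6 (SE 7.49, limma adjusted p = 0.584). Lcp2 also had 1 WT-only region inside the gene, chr11:34058224-34058445, with −log10 q values of 3.55 and 8.25. Of its 20 regions called in all 4 libraries, 7 were lower in both KO libraries (background 18.1%) and 1 was higher in both (background 18.3%).

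Grap2, whose product Gads links SLP-76 to LAT, carried regions of both kinds. The WT-only region chr15:80630842-80631098, inside the gene, reached −log10 q values of 10.2 and 24.8 and percentiles of 50.3 and 62.3 among all peaks of WT 1 and WT 2. The second WT-only region, chr15:80607472-80607595, was weak at 2.34 and 7.06, and the KO-only region chr15:80615156-80615364 had −log10 q values of 6.98 and 4.03. Close to these, chr15:80610438-80610624 ranked at 26.4 and 21.4 in WT and 44.8 and 42.5 in KO, and chr15:80617933-80618091 at 1.10 and 15.7 in WT and 27.8 and 27.1 in KO. Both differences, 19.7 and 19, were above both WT libraries in both KO libraries and had limma adjusted p values of 0.710 and 0.633. Inside this 1 gene, then, regions called in WT alone stood beside regions that ranked higher in KO.

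The remaining receptor-proximal genes varied less. Vav1, a guanine nucleotide exchange factor, had 2 WT-only regions, chr17:57304795-57305025 inside the gene (−log10 q 2.32 and 12.1) and chr17:57338056-57338222, 8.82 kb downstream (1.68 and 5.08). Plcg1, which encodes phospholipase C gamma, had no genotype-specific region among 19. Of its 11 regions called everywhere 3 were higher in both KO libraries (background 18.3%) and 0 lower in both (background 18.1%). Lat, the membrane adaptor, had none among 10, and its promoter region chr7:126369231-126369942 ranked at 93.5 and 92.9 in WT and 92.1 and 95.5 in KO. Tespa1, a thymocyte protein of the TCR pathway, had none among 14. Over the whole group the median difference was −1.35 points. At an unadjusted limma p under 0.05, 3 of 80 regions were lower (3.75%; background 3.6%) and 2 higher (2.5%; background 3.85%).

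In the relay, Rasgrp1 was the gene whose regions most often stood lower in KO. Its product, a Ras exchange factor that diacylglycerol recruits to the membrane, passes the TCR signal to the MAP kinases. The gene lies at chr2:117279983-117342877 on the minus strand, the next protein-coding gene on its upstream side, Thbs1, is 769 kb away, and Fam98b lies 8.44 kb beyond its other end. It held 46 regions: 26 that every library called, 2 WT-only and 0 KO-only. It was singled out after its values were seen.

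Both WT-only regions of Rasgrp1 lay upstream. At 21.4 kb, chr2:117364273-117364512 had −log10 q values of 12.4 in WT 1 and 48.5 in WT 2, fold enrichments of 7.78 and 18.1, and percentiles of 63.9 and 87.0 among all peaks of these libraries. At 79.5 kb, chr2:117422387-117422597 had −log10 q values of 18.1 and 48.8, fold enrichments of 6.55 and 8.02, and percentiles of 54.8 and 59.0. No peak overlapped either in a KO library. They were the strongest genotype-specific regions of all 32 genes by the lower of both percentiles.

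At the regions of Rasgrp1 called in every library, 10 of 26 were lower in both KO libraries (background 18.1%) and 2 were higher in both (background 18.3%). Leaving out 1 library relaxes this rule, and no share over all regions was taken for the omissions that follow. Omitting WT 1 gave 12 lower and 10 higher of 28, and omitting WT 2 gave 20 and 3 of 26. Omitting KO 1 gave 12 and 5 of 26, and omitting KO 2 gave 13 and 2 of 28. At 88.8 kb upstream, chr2:117431686-117431864 ranked at 54.6 and 31.9 in WT and at 3.02 and 7.27 in KO, a difference of −38.1 (SE 10.3, limma adjusted p = 0.489). At 69.3 kb upstream, chr2:117412128-117412424 ranked at 79.2 and 73.0 in WT and at 35.8 and 47.7 in KO, a difference of −34.3 (SE 9.70, limma adjusted p = 0.499). In both, every KO value lay well below every WT value. At 55.3 kb upstream, chr2:117398164-117398439 ranked at 65.2 and 52.4 in WT and at 34.7 and 11.7 in KO, and inside the gene, 4.06 kb from its nearer end, chr2:117338519-117338818 ranked at 65.4 and 37.4 in WT and at 17.7 and 13.9 in KO. Each of these last 2 differed by −35.6 (SE 12.8 and 12.5, limma adjusted p = 0.582 and 0.572), and neither overlapped between the genotypes.

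The smallest unadjusted limma p of any member region, 0.000783, also belonged to Rasgrp1. At 90.7 kb upstream, chr2:117433567-117433809 ranked at 92.5 and 89.4 in WT and at 74.9 and 68.8 in KO, a difference of −19.1 (SE 3.85, limma adjusted p = 0.406). This region too was picked after its values were seen. Ranked by −log10 q in place of fold, it differed by −18.4 with a limma adjusted p of 0.0436, the only member region past 0.05 under that setting. The promoter region of the gene, chr2:117342506-117343660, overlapped between the genotypes instead, at 71.8 and 48.0 in WT and 68.4 and 58.7 in KO, a difference of 3.66.

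Counted over the gene, 8 of the 26 regions (30.8%) of Rasgrp1 were lower in KO at an unadjusted limma p under 0.05 (background 3.6%) and 0 were higher (background 3.85%). They made up 8 of the 9 such regions in the relay group. Upstream, 12 of 16 regions were lower in KO (50.6% over all genes), 7 of them in both libraries (background 18.1%) and 6 at that p. The median difference there was −3.25. Inside the gene 6 of 10 were lower, with a median of −0.838. Among 369 genes with 20 to 40 regions called in all 4 libraries the median gene had 1 region lower at that p. In that set 1 gene, Rasgrp1, had 8 or more, while 0 genes had 8 or more that were higher. Because Rasgrp1 was singled out after these values were seen, its place among the 369 is a description and not a test. The count of 8 was 4 without WT 1, 6 without WT 2, 3 without KO 1 and 3 without KO 2, alternatives chosen for this gene after seeing the data. It was 3 of 13 regions where only regions within 20 kb were kept, and 4 where ranks were taken among all peaks of a library, and the count of higher regions was 0 throughout.

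**Figure D3:**
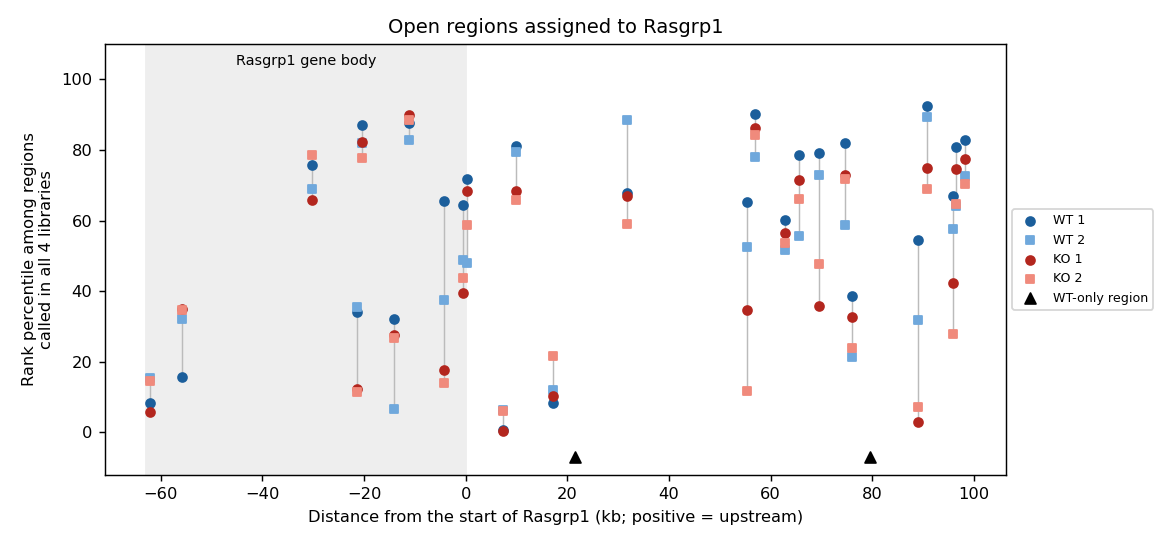
Rank percentile (0 to 100) of each Rasgrp1 region called in all 4 libraries against its distance from the gene's start in kb, positive upstream, with WT libraries in blue, KO libraries in red and the gene body in grey. Triangles below 0 mark the WT-only regions at 21.4 and 79.5 kb, and at 55.3, 69.3, 88.8 and 90.7 kb both red points fall below both blue ones. Of the 16 upstream regions, 7 show this order (background 18.1%).

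Prkcq, which encodes protein kinase C theta, had the most regions of any member and a different balance. Of 31 regions called everywhere, 5 were lower in both KO libraries (background 18.1%) and 10 higher in both (background 18.3%). Its 2 WT-only regions were distant and weak, chr2:11087159-11087285 at 84.6 kb upstream (−log10 q 2.91 and 3.55) and chr2:11329595-11329793 at 28.4 kb downstream (4.05 and 9.37). Inside the gene, chr2:11205739-11206192 ranked at 52.1 and 31.7 in WT and 13.4 and 14.1 in KO, a difference of −28.1 and the only Prkcq region with an unadjusted limma p under 0.05. Sos1, a second Ras exchange factor, and Bcl10 and Malt1, which act together upstream of NF-κB, had no genotype-specific region and no region at that p. Over the whole relay group the median difference was 0.013 points.

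The inhibitors held the larger share of the KO-only regions, 10 of the 18, at 4.33% of their 231 regions beside a background of 3.02%. Cblb, a ubiquitin ligase that raises the threshold of T cell activation, had 4 of these, all inside the gene: chr16:52100968-52101139, chr16:52108004-52108173, chr16:52138063-52138184 and chr16:52148155-52148246. Their −log10 q values lay between 1.43 and 5.14 in KO 1 and between 1.79 and 4.69 in KO 2. Cblb also had 2 WT-only regions, of which chr16:52043981-52044191 inside the gene was the stronger, at 5.42 and 18.6, and chr16:51933247-51933373, 97.9 kb upstream, had 2.91 and 10.4. Near the first of them, chr16:52049275-52049872 ranked at 77.5 and 73.0 in WT and at 36.5 and 24 in KO, a difference of −45.0 (SE 10.9, limma adjusted p = 0.454). The Cblb promoter, chr16:52031070-52031721, ranked at 96.3 and 92.9 in WT and 95.3 and 89.1 in KO and overlapped between the genotypes.

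Csk, the kinase that silences Src-family kinases, had 2 KO-only regions inside the gene. At chr9:57643919-57644041 the −log10 q was 7.99 in KO 1 and 5.24 in KO 2, and this was the KO-only region that passed 5 in both libraries. At chr9:57642344-57642454 it was 5.52 and 3.76. Both ranked low by fold enrichment, at percentiles of 4.59 and 0.187 and of 4.22 and 0.189 among all peaks of KO 1 and KO 2. Csk was called at 9 and 10 of its 15 regions in WT and at 15 and 12 in KO. Over all regions near a gene the shares called were 58.0% and 76.6% in WT and 73.8% and 69.4% in KO.

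The paralogous suppressors Ubash3a and Ubash3b differed in what they carried. Ubash3a had 2 KO-only regions and no WT-only region: chr17:31205630-31205762, 2.11 kb upstream of the gene whose promoter is printed above, with −log10 q values of 3.16 and 3.62, and chr17:31245462-31245647 inside it, with 6.20 and 3.66. Its promoter region, chr17:31207908-31208318, ranked at 76.8 and 71.7 in WT and 56.5 and 66.7 in KO, a difference of −12.6 (SE 7.30, limma adjusted p = 0.730). Ubash3b had 2 WT-only regions, chr9:41156623-41156753 inside the gene (1.95 and 2.83) and chr9:41170255-41170408, 8.56 kb upstream (3.15 and 8.79), and 1 KO-only region inside it, chr9:41135367-41135516 (3.41 and 2.96). Upstream by 53 kb, chr9:41214734-41214953 ranked at 38.3 and 9.66 in WT and at 59.6 and 55.5 in KO. That difference of 33.5 points (SE 13.1, limma adjusted p = 0.609) was the widest in favour of KO among the 400 regions, and WT 2 lay far below WT 1 there.

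Sla and Sla2 encode Src-like adaptors that lower TCR levels at the surface. Sla had 2 WT-only regions, chr15:66794982-66795117 (−log10 q 2.37 and 6.61) and chr15:66815282-66815377 (1.76 and 5.34). Of its 10 regions called everywhere 5 were lower in both KO libraries (background 18.1%) and 0 higher in both (background 18.3%). Because the gene lies within Tg, its regions could also be given to Tg. Sla2 had 1 KO-only region, chr2:156880250-156880395 (3.11 and 4.69). Upstream of Sla2 by 16.2 kb, chr2:156903479-156903697 ranked at 53.9 and 79.7 in WT and 87.8 and 85.5 in KO, a difference of 19.8 (SE 7.59, limma adjusted p = 0.601). WT 1 alone was far below the rest at that region.

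The adaptor gene Dok2, whose product recruits the GTPase-activating protein of Ras, had no genotype-specific region, and the regions beside it differed in both directions. At 38.1 and 39.4 kb from the gene, chr14:70816563-70816861 ranked at 0.947 and 17.2 in WT and 25.8 and 34.0 in KO, and chr14:70817878-70818152 at 19.6 and 10.5 in WT and 28.7 and 41.6 in KO. Their differences were 20.8 and 20.1 (SE 8.75 and 9.67, limma adjusted p = 0.630 and 0.674). Nearer the gene, at 2.66 kb, chr14:70781157-70781505 ranked at 38.9 and 50.4 in WT and 13.8 and 12.1 in KO, a difference of −31.7. Part of Dok2 overlaps Xpo7. Cbl, Ptpn22, Ptpn6, Dok1 and Dusp2, which encode a ubiquitin ligase, 2 tyrosine phosphatases, a second Dok adaptor and a MAP kinase phosphatase, had no genotype-specific region. Over all inhibitors the median difference was −2.19 points, with 33 of 130 regions (25.4%; background 18.1%) lower in both KO libraries and 18 (13.8%; background 18.3%) higher in both.

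**Figure D4:**
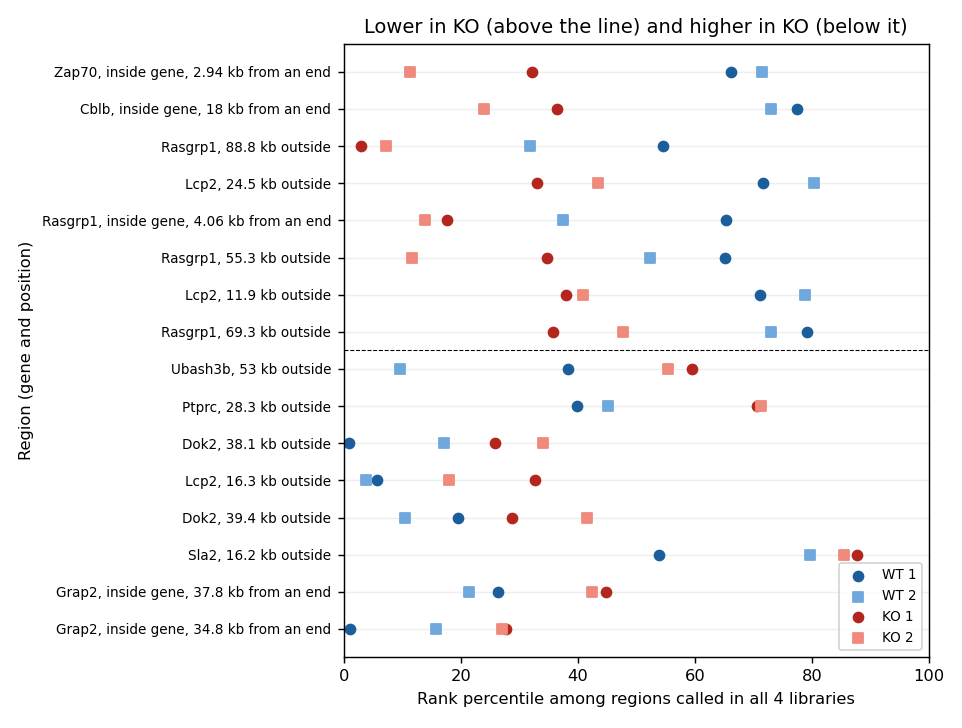
Rank percentile (0 to 100, horizontal) in each library of the 8 member regions with the widest lower values in KO (above the dashed line) and the 8 with the widest higher values in KO (below it), among regions whose genotypes do not overlap. WT is blue and KO red. At the Zap70 region the KO points sit at 32.2 and 11.3 and the WT points at 66.2 and 71.4, and 4 of the upper 8 regions belong to Rasgrp1.

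Among the surface genes, Ptprc and Cd24a encode proteins that the sort itself used, CD45 (through its RB isoform) and CD24. The Ptprc promoter region, chr1:138175090-138175413, ranked at 68.1 and 66.3 in WT and at 63.5 and 60.3 in KO, a difference of −5.28 (SE 7.77, limma adjusted p = 0.920). Over a gene end of Cd24a, chr10:43578700-43579977 ranked at 64.2 and 44.1 in WT and at 39.6 and 28.5 in KO, a difference of −20.1 (SE 12.5, limma adjusted p = 0.752). Both regions were lower in both KO libraries, although the WT libraries at Cd24a were as far apart as the genotypes. A second gene-end region of Cd24a, chr10:43580097-43580260, was weak in all 4 libraries, at 1.86 and 0.814 in WT and 7.24 and 1.38 in KO. Of the 8 Cd24a regions called everywhere, 5 were lower in both KO libraries (background 18.1%) and 0 higher in both (background 18.3%). The gene also had 2 distant KO-only regions, chr10:43601551-43601681 and chr10:43672020-43672118, at −log10 q values of 4.13 and 1.79 and of 3.12 and 2.78.

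Ptprc had 3 KO-only regions inside the gene and no WT-only region. These were chr1:138087174-138087262 (−log10 q 3.17 and 2.69), chr1:138123980-138124121 (5.98 and 4.53) and chr1:138137086-138137247 (10.1 and 1.66). Upstream by 28.3 kb, chr1:138204054-138204336 ranked at 39.9 and 45.1 in WT and at 70.7 and 71.3 in KO, a difference of 28.5 (SE 9.72, limma adjusted p = 0.565). Here the libraries of each genotype lay close together. The highest region of the gene, 15.8 kb upstream at chr1:138191580-138192384, ranked at 97.4 and 92 in WT and 93.2 and 92.5 in KO.

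Ptprj, the receptor phosphatase CD148, was the member with the most WT-only regions, all weak: chr2:90425061-90425192, 4.56 kb downstream (−log10 q 2.15 and 5.32), and chr2:90503279-90503408 (2.27 and 4.03) and chr2:90567031-90567176 (2.95 and 2.87) inside the gene. Its regions called everywhere gave the opposite balance, with a median difference of 2.24 and 14 of 20 higher in KO. Thy1, a glycolipid-anchored surface protein of T cells, had a WT-only region 8.75 kb away, chr9:44034480-44034630 (6.89 and 8.45), and a KO-only region 256 bp from the gene, chr9:44048835-44048998 (2.27 and 3.36). The latter was the 1 genotype-specific region near a gene end. Cd2, an adhesion receptor, had 1 WT-only region at 43.0 kb, chr3:101232737-101232862 (3.16 and 4.03), and Cd69 1 KO-only region at 3.53 kb, chr6:129263603-129263795 (3.96 and 8.58). The costimulatory receptor gene Cd28 and Sh2d1a, which encodes the SLAM-associated adaptor SAP, had none among 32 and 9 regions. Cd69 had 14 of 16 regions lower in KO (50.6% over all genes), 3 of them in both libraries (background 18.1%). Over the surface group the median difference was −1.85 points.

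Peak widths gave a like picture and again no call. Covered length was compared as log2, centred on each library's median over the regions called in all 4. With limma, 0 of 400 member regions passed an adjusted p of 0.05 as narrower or as wider in KO (background 0.0% in each), and the smallest adjusted p was 0.422. At an unadjusted limma p under 0.05, 20 were narrower (5.0%; background 3.25%) and 10 wider (2.5%; background 3.22%). Both KO libraries were narrower than both WT libraries at 84 regions (21.0%; background 16.6%) and wider at 51 (12.8%; background 16.5%). The median log2 difference was −0.0555, against −0.0156 over all genes, and it was 0.0187 without WT 1 and −0.127 without WT 2.

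The narrowest in KO was a region 73.4 kb from Cd24a, chr10:43657683-43658069, which covered 288 and 352 bp in WT and 147 and 94 bp in KO, a centred log2 difference of −1.49 (SE 0.278, limma adjusted p = 0.422). After the Zap70 region above, at −1.08, came the Dok2 region chr14:70781157-70781505, with 288 and 349 bp in WT and 135 and 210 bp in KO, and the Cblb region chr16:52095720-52096133, with 232 and 381 bp in WT and 114 and 234 bp in KO. The widest in KO lay 74.5 kb from Thy1, chr9:43968372-43968850, at 138 and 174 bp in WT and 303 and 446 bp in KO, a difference of 1.20 (SE 0.225, limma adjusted p = 0.422). The Dok2 region at 38.1 kb followed with 90 and 141 bp in WT and 299 and 232 bp in KO, and the upstream Lcp2 region with 133 and 439 bp in WT and 583 and 521 bp in KO. Inside Ptpn6, chr6:124729930-124730415 covered 128 and 230 bp in WT and 359 and 412 bp in KO (difference 1.11). Without KO 2 the peaks were joined anew, and the region that overlapped this one most differed by −0.417. The widths given here do not yield that value, so it does not describe the same stretch. At the Zap70, Dok2 and Lcp2 regions, width and rank differed in the same direction, whereas the Ptpn6 region was wider in KO and ranked 9.53 points lower.

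The other genes of the pathway, 48 that were listed beside the 32, gave similar rank figures. They held 1038 regions, 556 of them called in all 4 libraries. Of the 1038, 21 were WT-only (2.02%; background 2.09%) and 18 KO-only (1.73%; background 3.02%), at 15 and 14 genes. Rac2, a small GTPase, had 2 WT-only regions and no KO-only region, and Cd247, the CD3 zeta chain, had 1 KO-only region. Rasa3, a Ras GTPase-activating protein, had 1 WT-only and 3 KO-only regions. No region of the 556 passed an adjusted limma p of 0.05. At an unadjusted limma p under 0.05, 28 were lower (5.04%; background 3.6%) and 17 higher (3.06%; background 3.85%). The median rank difference was −1.33 points, beside −1.28 for the 32 genes. In both KO libraries 122 were lower (21.9%; background 18.1%) and 85 higher (15.3%; background 18.3%).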

How the data were processed

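Each library came as a narrowPeak list that the authors deposited, with peaks called separately in each. Per the submitters' processing notes, the tools included Bowtie2 2.3.4.1 and MACS2 2.1.1, with deepTools 3.1.2, bedtools, Picard, cutadapt and Trim Galore, and the builds mm10 and GRCm38. Not given in the sources used here are their roles, the peak settings, the handling of the Tn5 offset and of duplicates, and read totals. Libraries were amplified for 9 to 11 PCR cycles per the labels' protocols. The authors' column 7 is a fold enrichment, a ratio of each summit to its local background in the same library, and ranks of it do not carry absolute signal. The deposited −log10 q ends at a q of 0.1, and the deposited −log10 p and the score were not used.

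Each list lost 312 to 462 peaks on other sequences. A region was called in a library if a peak overlapped it by 1 bp, took its best value there, and was given to the nearest RefSeq (GRCm38.p6) gene body. For 30 member regions that overlapped more than 1 gene, the gene with the nearer end was taken. Ranks and log2 widths were fitted with limma 3.58.1 (variance trend, Benjamini-Hochberg over all regions called in all 4 libraries) in R 4.3.3, with pandas 2.3.3 for the rest. The rank fit was tried on simulated data with 50 shifted regions per size. An adjusted limma p under 0.05 was reached by 0 at a shift of 20 points, 6 at 40, 41 at 60 and 50 at 80. Most shifts of 40 points or less were thus missed. The text names every genotype-specific region, each gene's highest shared region where it adds a value, the gene-end regions of Cd24a and Ptprc, the 8 lowest and 8 highest rank differences without overlap, and the 4 narrowest and widest. Promoters printed are those with the nearest genotype-specific region or the highest gene-end region. Members, gene lists and tests were chosen with earlier results of these data known. Positions are 1-based, and exon and intron positions were not analysed here.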

Additional observations from a re-analysis of the deposited data

How the results depend on the processing

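The rank and width tests rest on 2 libraries a genotype, so a region that missed an adjusted p of 0.05 is not shown to be alike in both genotypes. Weak peaks near the end of a list decide most genotype-specific calls. At a −log10 q of at least 5, 5 of the 20 WT-only and 1 of the 18 KO-only regions kept their kind, and the counts were 16 and 10. With equal numbers of peaks per library, 15 and 4 kept it, the counts were 29 and 12, and the difference in the share called per library was −3.97 points (exact permutation p = 0.333, the smallest possible). With at least 0.5 of a region covered, 17 and 14 kept it.

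Leaving out 1 library in turn gave 33 to 77 WT-only regions and 27 to 66 KO-only regions, since fewer lists must then meet the rule. Over the same omissions the difference in the share called ran from −6.49 to 9.13 points and the median rank difference from −4.63 to 0.518. Regions lower without overlap numbered 133 to 220 and those higher 98 to 169, of 409 to 447 regions and under the same relaxed rule. There were more higher (169) than lower (133) without WT 1. Limma calls at an adjusted p under 0.05 numbered 0 to 3 for narrower and 0 to 2 for wider regions, and the median log2 width difference ran from −0.127 to 0.0187. Ranking by −log10 q gave 1 limma call lower in KO, at Rasgrp1. Normal scores of the ranks gave 3: Zap70 (adjusted p = 0.0332), Cblb (0.0201) and Lcp2 at 24.5 kb (0.0499), whose adjusted p ranged over the settings up to 1.0, 0.867 and 1.0. Ranks among all peaks of a library gave a median difference of 0.221 for members and 1.22 for all regions. Widths without centring gave a median of −0.00428 for members and 0.0368 for all regions. The cause of these shifts was not tested.

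Whether the replicate numbers pair the libraries cannot be decided from 2 pairs. Deviations of same-numbered libraries correlated at 0.116 for ranks and 0.0571 for widths. With the replicate block limma gave 0 calls in ranks (31 lower and 8 higher at an unadjusted p under 0.05) and 0 in widths (20 narrower and 14 wider). The smallest adjusted limma p of a member region was then 0.0688 for ranks and 0.255 for widths. Without the block these were 0.406 and 0.422. Without KO 2, where peaks were joined anew, the region that overlapped the named Ptpn6 region most differed in log2 width by −0.417.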

Other observations

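The regions of these 32 genes that were called in a single library were spread unevenly over the libraries, as were those missing from 1 library. WT 1 alone called 23, WT 2 alone 57, KO 1 alone 46 and KO 2 alone 37. Conversely 45 regions were missing from WT 1 alone, 9 from WT 2, 13 from KO 1 and 25 from KO 2. Regions shared by 1 WT and 1 KO library and no other numbered 26 for WT 2 with KO 1, 24 for WT 2 with KO 2, 6 for WT 1 with KO 1 and 4 for WT 1 with KO 2. Pairs with WT 2 thus held as many or more regions than the 20 WT-only and 18 KO-only ones, and pairs with WT 1, the shortest list, held fewer. No share over all regions was taken for the counts in this paragraph, so they are not shown to be particular to these genes. The libraries also differed over all regions near a gene, with 58.0% and 76.6% called in WT 1 and WT 2 and 73.8% and 69.4% in KO 1 and KO 2.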
